A study of Mus musculus with 14 samples.

Results

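The 39 genes described here encode the proteins that copy DNA in S phase, the part of the cell cycle in which the genome is duplicated. They were taken as a fixed list of symbols, and all 39 were present among the 27399 genes of the bulk count files and in the single-cell matrices. They fall into 7 groups by role, namely the MCM helicase, its loading and activation, primase and polymerases, the sliding clamp and its loader, single-strand binding and strand joining, nucleotide supply, and a group for control, chromatin assembly and base repair. The question was what Isx-9, a small molecule, did to these genes in mouse intestinal organoids, which are cultures of gut epithelium that grow from its stem cells. The bulk libraries came from stem cells that were sorted by the Lgr5-EGFP knock-in of their organoids, 6 hours into 25 µM Isx-9 or 0.05% DMSO, with 2 libraries each. The single-cell libraries came from whole Chgb-mCherry knock-in organoids after 6 days of 25 µM Isx-9 or of 0.05% DMSO, from untreated Chgb-mCherry knock-in organoids, and from untreated wild-type organoids, with 1 library each. Chgb-mCherry marks enteroendocrine cells, the hormone cells of the gut epithelium. All organoids grew in ENR, a medium named for its EGF, Noggin and R-spondin1, and treatment began on day 2 after passaging. The labels do not say that libraries of 1 group came from separate cultures, so spreads and p-values may reflect technical variation only.

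DNA replication starts when Cdc6 and Cdt1 load rings of MCM proteins onto origins in G1. In S phase, Cdc45, the GINS proteins and Mcm10 turn each ring into an active helicase, primase lays down RNA primers, and the polymerases extend them along a sliding clamp. E2F transcription factors, held back by RB until a cell commits to divide, switch many of these genes on together at the start of S phase. In the gut, the stem cells and progenitors of the crypt cycle rapidly, and most cells leave the cycle as they differentiate into enterocytes or secretory cells.

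Promoter windows are shown first because the genes are known for shared control by E2F. RefSeq sequences of GRCm38.p6, from 250 bases before the gene start to 50 bases from it on, covered 34 of the 39 genes in 39 windows, all but Gins1, Gins2, Mcm4, Pole and Rfc2. The E2F search used TTTCCCGC, TTTCGCGC, TTTGCCGC and TTTGGCGC on both strands, and matches on opposite strands may overlap. A match was present in 14 of the 39 windows (35.9%), against 744 of all 32851 promoter windows (2.265%), and these belonged to 14 of the 34 genes. Among the G2 and mitosis genes, which act after replication, 1 of 29 windows held a match (3.45%). For the CCAAT box, searched as CCAAT on both strands, the shares were 59.0% for the replication genes, 86.2% for the G2 and mitosis genes and 37.4% for all windows. The windows below are those of genes with a single window, namely the 4 that fell most in bulk among those with an E2F match, the 2 with the highest bulk fold change among those with a match, and the one that fell most without a match. Capitals mark E2F matches, and each sequence reads 5′ to 3′ on the strand of its gene.
Cdt1: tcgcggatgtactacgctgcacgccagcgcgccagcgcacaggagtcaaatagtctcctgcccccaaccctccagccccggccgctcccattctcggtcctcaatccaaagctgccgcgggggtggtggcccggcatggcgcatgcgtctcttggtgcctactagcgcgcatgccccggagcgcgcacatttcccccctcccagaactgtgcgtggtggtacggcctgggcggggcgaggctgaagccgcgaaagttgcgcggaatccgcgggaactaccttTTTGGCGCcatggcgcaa
Mcm5: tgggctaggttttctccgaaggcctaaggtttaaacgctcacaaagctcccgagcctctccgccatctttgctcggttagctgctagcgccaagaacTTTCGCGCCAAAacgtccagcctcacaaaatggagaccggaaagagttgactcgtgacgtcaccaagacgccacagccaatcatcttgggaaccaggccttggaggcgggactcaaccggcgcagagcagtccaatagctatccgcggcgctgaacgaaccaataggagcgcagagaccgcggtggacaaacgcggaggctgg
Dtl: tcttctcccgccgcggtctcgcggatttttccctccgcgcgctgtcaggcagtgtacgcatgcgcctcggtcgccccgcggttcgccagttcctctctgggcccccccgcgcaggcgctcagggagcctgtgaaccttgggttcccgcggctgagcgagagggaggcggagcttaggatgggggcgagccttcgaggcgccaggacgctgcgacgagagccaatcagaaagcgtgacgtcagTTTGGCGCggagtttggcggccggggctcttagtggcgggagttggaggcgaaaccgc
Mcm6: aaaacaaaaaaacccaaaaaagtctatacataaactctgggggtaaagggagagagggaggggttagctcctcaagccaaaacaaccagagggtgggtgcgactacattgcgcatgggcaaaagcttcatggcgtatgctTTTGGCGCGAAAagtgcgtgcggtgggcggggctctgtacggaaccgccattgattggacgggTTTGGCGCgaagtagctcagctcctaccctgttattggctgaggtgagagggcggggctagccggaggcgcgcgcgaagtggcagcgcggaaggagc
Gins3: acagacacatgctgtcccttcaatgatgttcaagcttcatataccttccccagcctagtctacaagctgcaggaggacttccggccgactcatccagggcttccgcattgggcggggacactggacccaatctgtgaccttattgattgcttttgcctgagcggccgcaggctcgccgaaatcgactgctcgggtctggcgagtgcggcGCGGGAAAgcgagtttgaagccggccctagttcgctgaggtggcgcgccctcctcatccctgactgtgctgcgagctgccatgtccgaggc
Pola1: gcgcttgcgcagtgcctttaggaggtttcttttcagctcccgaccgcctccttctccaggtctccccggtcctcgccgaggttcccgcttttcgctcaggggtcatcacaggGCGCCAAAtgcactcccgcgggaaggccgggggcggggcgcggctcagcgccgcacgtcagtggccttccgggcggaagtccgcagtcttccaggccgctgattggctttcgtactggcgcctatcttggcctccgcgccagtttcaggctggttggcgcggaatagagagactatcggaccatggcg
Rpa2: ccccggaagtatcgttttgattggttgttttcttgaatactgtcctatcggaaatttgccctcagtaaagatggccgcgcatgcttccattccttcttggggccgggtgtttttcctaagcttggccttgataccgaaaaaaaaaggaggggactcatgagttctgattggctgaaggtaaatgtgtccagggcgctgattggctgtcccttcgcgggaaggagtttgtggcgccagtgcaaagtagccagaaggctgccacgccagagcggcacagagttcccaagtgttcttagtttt
Positions count the first base of the gene as 0. The Cdt1 window (chr8:122567765-122568064, + strand) had its match at 32, inside the transcribed part, and the Dtl window (chr1:191575495-191575794, - strand) at -8. The Mcm5 window (chr8:75109259-75109558, + strand) held 2 matches that overlap on opposite strands, at -153 and -149. The Mcm6 window (chr1:128359656-128359955, - strand) held 3, an overlapping pair at -110 and -106 and another at -47. Gins3 (chr8:95633309-95633608, + strand) had a match at -41 and Pola1 (chrX:93632106-93632405, - strand) at -138, although neither gene fell in bulk. Rpa2 (chr4:132768110-132768409, + strand) had none and fell. Of the genes with a window, 11 of the 23 that fell in bulk and 3 of the 11 that did not pass the test held a match.

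The bulk libraries held 18909542 to 19487264 counts, and 17418 genes passed the filter on low counts, all 39 replication genes among them. In the single-cell libraries, 10016 cells with Isx-9, 8969 with DMSO, 9610 of the untreated reporter and 8745 of the wild type passed the filters, with medians of 9374, 13388, 12633 and 15007 UMIs per cell. Pairs of single-cell libraries shared 32 to 52 barcodes, at most 0.438% of the smaller library. Lgr5, the stem cell receptor behind the sorting reporter, averaged 316 ± 5.87 CPM with Isx-9 and 359 ± 26.2 CPM with DMSO in the sorted cells (SD, n = 2 each), so the marker of the sort was present in every bulk library. Of 10 stem cell markers 8 fell and 1 rose (edgeR, adjusted p under 0.05), where 20.03% of all tested genes fell and 27.3% rose. Among the 825 tested genes between the quartiles of these markers' DMSO levels (192 and 547 CPM), 68.2% fell and 2.42% rose. The counts of the 10 markers include those outside these quartiles. Markers of other cells moved with treatment too. Mesenchymal markers, of which 4 of 7 were tested and all 4 rose, summed over those 4 to 56.6 and 40.0 CPM in the Isx-9 libraries, against 5.81 and 7.0 CPM in the DMSO libraries. The other 3 did not pass the filter, and the fibroblast genes Col3a1 and Dcn among them had 0 to 6 counts in each bulk library. Their part in the results below was not tested.

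After 6 hours of Isx-9, 27 of the 39 replication genes fell in sorted stem cells and 0 rose (edgeR, adjusted p under 0.05). Among all 17418 tested genes 20.03% were called lower and 27.3% higher. The median log2 fold change of the replication genes was -0.40, against 0.0165 for all tested genes. Of the 39, 37 lay below 0, as did 8524 of the 17418. Both Isx-9 libraries lay below both DMSO libraries for 32 genes, which held for 34.8% of all tested genes. They lay above them for 2 genes, against 6777 of the 17418. Together the replication genes summed to 3998 and 3725 CPM in the Isx-9 libraries, against 5336.5 and 4870 CPM in the DMSO libraries. The share of genes called lower differed by level. Over the whole range of DMSO levels of the replication genes (9.44 to 357 CPM), 32.1% of 9590 tested genes were called lower and 15.1% higher, and 50.7% had both Isx-9 libraries below both DMSO libraries. Between the lower and upper quartiles of the replication genes' DMSO levels (68.6 and 173 CPM), 11 of 19 replication genes were called lower, against 47.4% of 2561 tested genes, with medians of -0.29 and -0.21. Both Isx-9 libraries were below both DMSO libraries for 14 of these 19, against 65.5% of the 2561, and 0 of 19 were called higher, against 6.79%. All 19 had a log2 fold change below 0, as did 1996 of the 2561. At that level, the share that fell was near the background and is no result about replication genes. The counts by role given next rest on 4 to 7 genes each and are descriptions, to be read against the shares at like levels. None of them is taken as a result about its group. The 47.4% set beside several of them holds for the middle levels, and some genes of these groups lie outside those. Fewer cycling cells and less RNA per cell cannot be told apart in bulk RNA. Library size in place of TMM scaling moved the median of all genes to 0.14, and 21 replication genes were then lower, with a median of -0.28 over the 39, and Prim1 higher. Without Isx-9 replicate 2 there were 17 lower and 0 higher.

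**Figure D1:**
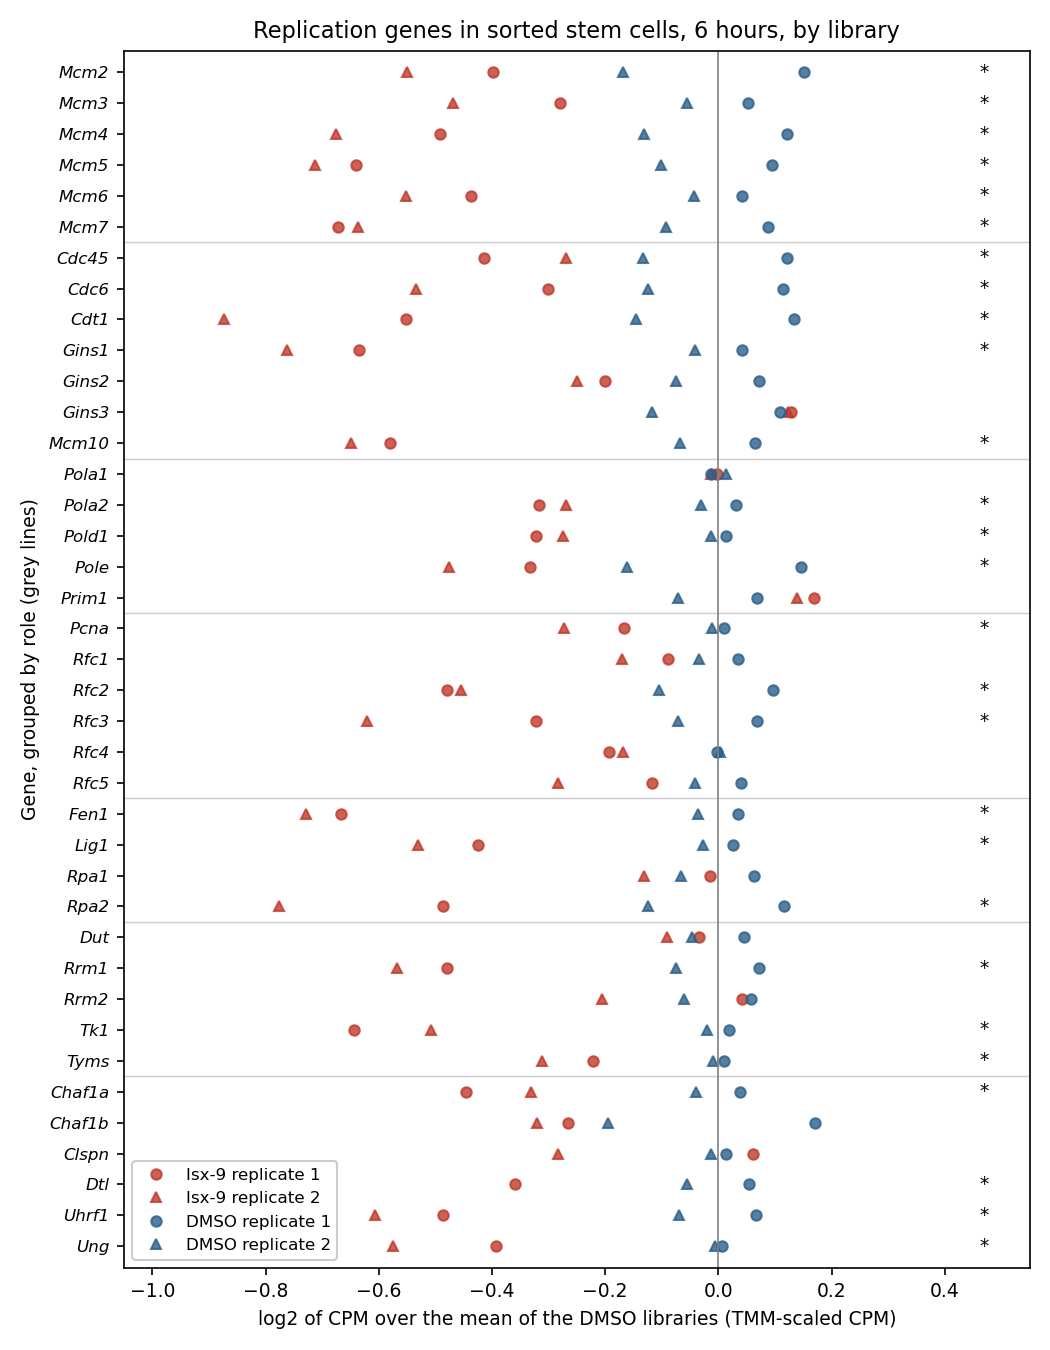
Each row is 1 replication gene, grouped by role, and each point is 1 bulk library of sorted stem cells, as the log2 of its CPM over the mean of the DMSO libraries (Isx-9 in red, DMSO in blue, circles for replicate 1 and triangles for replicate 2, asterisks for genes called lower). The MCM genes stand wholly to the left with Isx-9, while Gins3, Pola1 and Prim1 do not.

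All 6 MCM helicase genes fell, with a median log2 fold change of -0.54. Their mean DMSO levels lay between 192 and 547 CPM. Among the 825 tested genes in that range 68.2% were called lower, with a median of -0.30, so the count alone says little about these genes. Mcm5 had 149 and 141 CPM in the Isx-9 libraries, against 247 and 216 CPM in the DMSO libraries (log2 fold change -0.68, SE 0.085, edgeR adjusted p = 8.6e-05). Mcm7 had 198 and 203 CPM with Isx-9, against 336 and 297 CPM with DMSO (-0.65, SE 0.081, edgeR adjusted p = 7.3e-05). Mcm4 had 161 and 142 CPM with Isx-9, against 246 and 207 CPM with DMSO (-0.58, SE 0.098, edgeR adjusted p = 0.000632). For these 3 subunits the groups were well apart. Mcm6 had 263 and 243 CPM with Isx-9, against 367 and 346 CPM with DMSO (-0.49, SE 0.076, edgeR adjusted p = 0.000338). Mcm2 had 159 and 143 CPM with Isx-9, against 233 and 186 CPM with DMSO (-0.47, SE 0.10, edgeR adjusted p = 0.00338). Mcm3 had 197 and 173 CPM with Isx-9, against 248 and 230 CPM with DMSO (-0.37, SE 0.085, edgeR adjusted p = 0.00407). In all 6 the Isx-9 libraries were low without overlap, and of these only Mcm3 lost its call under any of the 8 alternatives, with -0.25 without Isx-9 replicate 2.

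Of the 7 loading and activation genes, 5 fell and 0 rose. Cdt1, which loads MCM rings, had 81.2 and 65.0 CPM in the Isx-9 libraries, against 130 and 108 CPM in the DMSO libraries (log2 fold change -0.70, SE 0.12, edgeR adjusted p = 0.000702). Gins1, a GINS subunit, had 10.4 and 9.53 CPM with Isx-9, against 16.6 and 15.7 CPM with DMSO (-0.70, SE 0.18, edgeR adjusted p = 0.00758), a call lost without Isx-9 replicate 2 (-0.61). Mcm10, a helicase activator, had 69.3 and 66.1 CPM with Isx-9, against 108 and 98.9 CPM with DMSO (-0.61, SE 0.088, edgeR adjusted p = 0.000208). None of these 3 overlapped between treatments. Cdc6, the partner of Cdt1 in loading (-0.41), and Cdc45 of the active helicase (-0.34) also fell, with calls lost under 4 of 8 alternatives for Cdc6 and 6 for Cdc45. The GINS genes differed in their fold changes. Gins2 stood at -0.22 and Gins3 at 0.12, neither past the test, although Gins2 was called without DMSO replicate 2.

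Primase and polymerase genes split, with 3 of 5 called lower. This is near the 47.4% of tested genes at the replication genes' middle levels and no result about the group. Pole, the catalytic subunit of the polymerase that copies the leading strand, had 111 and 101 CPM in the Isx-9 libraries, against 155 and 125 CPM in the DMSO libraries (log2 fold change -0.40, SE 0.11, edgeR adjusted p = 0.00855). Pold1, its counterpart for the lagging strand, had 113 and 117 CPM with Isx-9, against 143 and 140 CPM with DMSO (-0.30, SE 0.076, edgeR adjusted p = 0.00778). Both were lower in each Isx-9 library. Pola2, the accessory subunit of polymerase alpha, fell as well (-0.29). The calls of these 3 genes were lost under 3, 2 and 4 of 8 alternatives, in the order given. The catalytic subunit Pola1 stood at -0.0079, with 89.3 and 88.7 CPM with Isx-9 and 88.7 and 90.3 CPM with DMSO, which overlap. Prim1, which makes the RNA primers, stood at 0.15 and did not pass, although both Isx-9 libraries (76.7 and 75.1 CPM) lay above both DMSO libraries (71.5 and 65.0 CPM). With library size alone it was called higher (0.28), and Pola1 turned to 0.12 without a call.

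Of the clamp and clamp loader genes 3 of 6 fell, which is near the 47.4% of tested genes at the replication genes' middle levels and no result about this group. Rfc2, a loader subunit, had 55.5 and 56.5 CPM in the Isx-9 libraries, against 82.7 and 72.0 CPM in the DMSO libraries (log2 fold change -0.47, SE 0.098, edgeR adjusted p = 0.00242). Rfc3 had 40.3 and 32.7 CPM with Isx-9, against 52.8 and 47.9 CPM with DMSO (-0.46, SE 0.12, edgeR adjusted p = 0.00951), and lost its call without Isx-9 replicate 2 (-0.29). Pcna, the clamp itself, fell by 0.22 on the log2 scale, the smallest change called among the 39 and one lost under 4 alternatives. For Rfc1, Rfc4 and Rfc5 the Isx-9 libraries were lower without overlap, yet at -0.13 to -0.20 none of them passed. Rfc4 had 32.0 and 32.6 CPM with Isx-9, against 36.6 and 36.7 CPM with DMSO (-0.18, SE 0.11, edgeR adjusted p = 0.209).

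Single-strand binding and strand-joining genes fell in 3 of 4 cases. Fen1, the nuclease that trims the flaps of lagging strand fragments, had 55.7 and 53.3 CPM in the Isx-9 libraries, against 90.5 and 86.2 CPM in the DMSO libraries (log2 fold change -0.70, SE 0.089, edgeR adjusted p = 9.2e-05). Rpa2, a subunit of the single-strand binding protein, had 35.9 and 29.4 CPM with Isx-9, against 54.5 and 46.1 CPM with DMSO (-0.62, SE 0.13, edgeR adjusted p = 0.00244). Lig1, the ligase that seals the fragments, fell by 0.48 on the log2 scale. These 3 genes kept their call under all 8 bulk alternatives. Rpa1, the large subunit of the same binding protein as Rpa2, stood at -0.072 with overlapping groups.

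Nucleotide supply genes fell in 3 of 5 cases, again near the 47.4% of tested genes at the replication genes' middle levels and no result about the group. Tk1, the thymidine kinase of the salvage pathway, had 55.1 and 60.5 CPM in the Isx-9 libraries, against 87.2 and 84.9 CPM in the DMSO libraries (log2 fold change -0.57, SE 0.091, edgeR adjusted p = 0.000409). Rrm1, the large subunit of ribonucleotide reductase, had 238 and 223 CPM with Isx-9, against 348 and 314 CPM with DMSO (-0.52, SE 0.079, edgeR adjusted p = 0.000298). Its small subunit gene Rrm2 stood at -0.077, with 123 and 104 CPM with Isx-9 and 124 and 114 CPM with DMSO. The libraries of Rrm1 did not overlap between treatments, and those of Rrm2 did. Tyms, the thymidylate synthase, fell by 0.27 on the log2 scale with a call lost under 7 of 8 alternatives, and Dut, which breaks down dUTP, stood at -0.062.

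In the last group 4 of 6 genes fell, too few to tell apart from the same 47.4%. Dtl, which marks Cdt1 for destruction in S phase, had 89.6 and 67.8 CPM in the Isx-9 libraries, against 119 and 111 CPM in the DMSO libraries (log2 fold change -0.55, SE 0.12, edgeR adjusted p = 0.00298). Uhrf1, which guides maintenance methylation to new DNA, had 207 and 190 CPM with Isx-9, against 304 and 276 CPM with DMSO (-0.55, SE 0.081, edgeR adjusted p = 0.000255). Chaf1a, the large subunit of the chromatin assembly factor, had 86.6 and 93.7 CPM with Isx-9, against 121 and 115 CPM with DMSO (-0.39, SE 0.084, edgeR adjusted p = 0.00286). All 3 were lower in each Isx-9 library. Ung, which removes uracil from DNA, fell by 0.48 on the log2 scale, a call lost without Isx-9 replicate 2. Chaf1b (-0.29) and the checkpoint adaptor Clspn (-0.10) did not pass, except Chaf1b without DMSO replicate 2. Over the 8 alternatives, 16 of the 27 calls held in every one, and Clspn, Dut, Pola1, Rpa1 and Rrm2 turned positive with library size alone.

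Other genes of the cycle were set beside these at 6 hours. Each list is read against all tested genes between the quartiles of its own DMSO levels. The counts of a list cover all its genes, also those outside these quartiles. The shares compared are therefore not at wholly like levels. Of 55 further replication genes 33 fell (60.0%) and 0 rose, with a median log2 fold change of -0.35. Among the 3924 genes between their quartiles 34.8% were lower, with a median of -0.16. The lowest called were Dscc1 (-1.06) and Chtf18 (-0.78) of an alternative clamp loader, Orc1 of the origin recognition complex (-0.85) and Timeless of the fork protection complex (-0.80). Of 30 G2 and mitosis genes 13 fell (43.3%) and 0 rose, with a median of -0.17. Among the 1223 genes between their quartiles 49.1% were lower, with a median of -0.21, so this count is no result about them. Those lowest were the mitotic kinesins Kif20a (-0.45) and Kif23 (-0.40), the anaphase activator Cdc20 (-0.43) and Cdca8 of the chromosomal passenger complex (-0.41). Mki67, the usual marker of cycling cells, had 873 and 835 CPM in the Isx-9 libraries, against 860 and 863 CPM in the DMSO libraries (-0.012, SE 0.070, edgeR adjusted p = 0.903). Top2a, the topoisomerase of dividing cells, stood at -0.15 (edgeR adjusted p = 0.114). The Mki67 libraries overlapped between treatments.

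Among 22 E2F, RB and S-phase cyclin genes 9 fell (40.9%) and 3 rose, with a median of -0.21. Of the 3752 genes between the quartiles of their DMSO levels 38.0% (1426) fell and 412 rose, with a median of -0.17. These counts too are near the background. Those that rose were E2f7, a repressor of E2F targets, with 54.5 and 49.4 CPM with Isx-9, against 34.0 and 31.4 CPM with DMSO (log2 fold change 0.67, SE 0.11, edgeR adjusted p = 0.000526), Rb1, which restrains E2F (0.64), and Mycn of the MYC family (1.05). Rb1 had 80.6 and 81.5 CPM with Isx-9, against 47.1 and 56.9 CPM with DMSO. E2f7 and Rb1 were higher in each Isx-9 library and kept their calls, whereas that of Mycn was lost under 3 alternatives. Mybl2, a transcription factor of the later cycle, fell by 0.68 on the log2 scale. E2f1, an activator of S-phase genes, stood at -0.093, and the cyclin E genes Ccne1 and Ccne2 stood at -0.25 and 0.34, none past the test, although Ccne2 was called higher without DMSO replicate 2. The cyclin A gene Ccna2 fell by 0.28 on the log2 scale, with a call lost under 3 alternatives.

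After 6 days, replication genes were lower across all cells of the Isx-9 organoids. They summed to 1214 CPM (UMI counts scaled to the same library total) with Isx-9, against 1838 with DMSO, 1856 in the untreated reporter and 1894 in the wild type, a ratio of 0.660 between Isx-9 and DMSO (95% interval 0.656 to 0.665). With 1 library per condition there is no test, and intervals cover counting error only. A ratio of at most 1/1.5 was called lower, and 24 of 39 genes met this, while 0 reached 1.5. Over all 14962 genes with at least 100 UMIs in the 2 libraries, 9.45% were lower and 42.0% higher by this rule. The replication genes held 1151 to 43859 UMIs over these libraries. Shares among genes at like levels were not counted for any single-cell result. The median log2 ratio was -0.62 for the replication genes and 0.39 for all genes. The Isx-9 level lay below all 3 other libraries for 36 of 39 genes, which held for 26.7% of all genes. Between the other libraries the same genes moved little, with ratios of 0.935 to 1.05 for DMSO over the untreated reporter and 0.854 to 1.12 for the untreated reporter over the wild type.

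The lowest ratios were those of Mcm10 and Tk1. Mcm10 had 6.79 CPM with Isx-9, against 17.5 with DMSO, 18.7 in the untreated reporter and 18.999 in the wild type (ratio to DMSO 0.389, 0.358 to 0.422). Tk1 had 24.5 with Isx-9, against 63.0 with DMSO, 66.0 in the untreated reporter and 69.6 in the wild type (0.389, 0.372 to 0.406). The Isx-9 library was far below the other 3, which lay close together. Among the MCM genes the ratio was 0.488 for Mcm5, 0.556 for Mcm4, 0.604 for Mcm3, 0.653 for Mcm7, 0.663 for Mcm6 and 0.672 for Mcm2, and all but Mcm2 were past the fold. Chaf1a (0.478), Pold1 (0.484), Cdc45 (0.492), Fen1 (0.505), Uhrf1 (0.508), Cdt1 (0.509), Dtl (0.510) and Rfc4 (0.541) were also among the lowest. At the other end, Gins3 (1.05), Pola1 (1.01) and Rfc1 (1.0006) had intervals that included 1. Clamp and clamp loader genes as a group lay nearest to DMSO, with a summed ratio of 0.762 and 1 of 6 genes past the fold, against 0.586 and 5 of 7 for loading and activation.

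**Figure D2:**
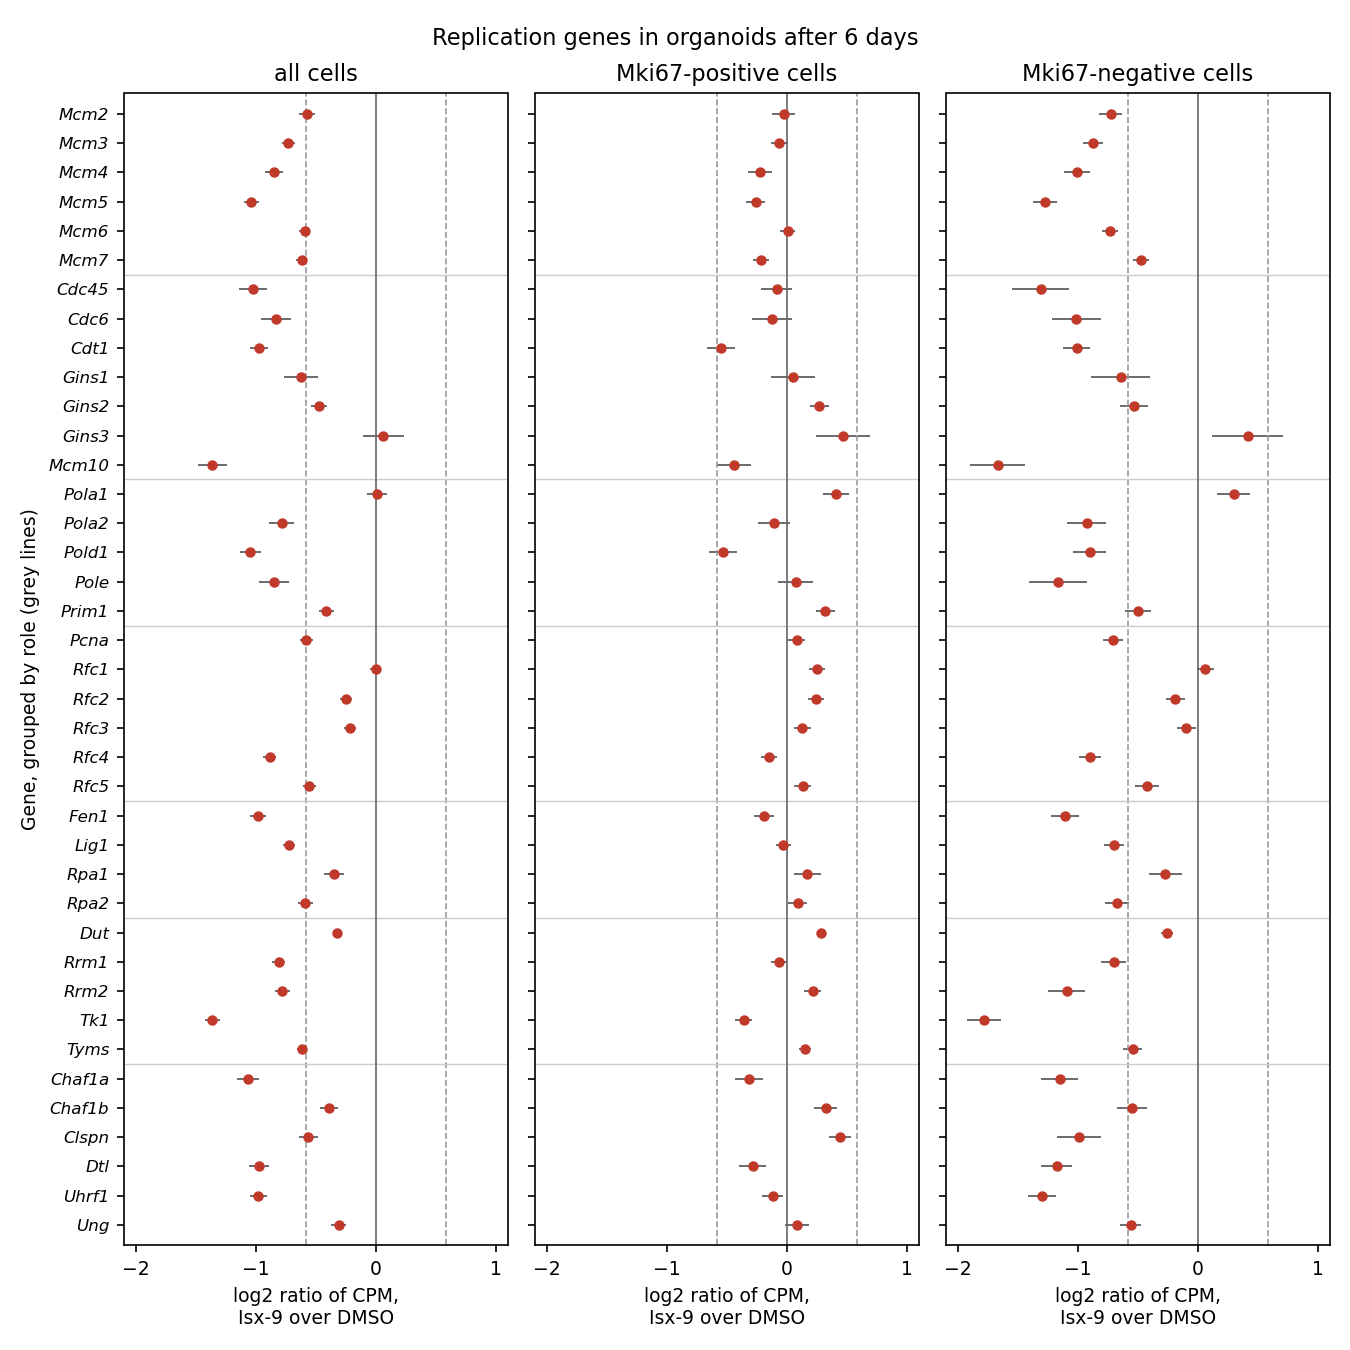
Each row is 1 replication gene, grouped by role, and each point is the log2 ratio of its CPM, Isx-9 over DMSO, with its 95% counting interval, in all cells, in Mki67-positive cells and in Mki67-negative cells after 6 days. Dashed lines mark a fold of 1.5. Of the 39 genes, 24 lie left of the lower line in all cells, 0 in Mki67-positive cells and 25 in Mki67-negative cells.

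Cells with an Mki67 UMI were a smaller share with Isx-9. They made up 17.6% of cells with Isx-9 (16.9 to 18.4%), against 46.0% with DMSO (45.0 to 47.1%), 48.3% in the untreated reporter and 45.0% in the wild type. With every cell thinned to 3000 UMIs, which left out 509, 607, 655 and 721 shallower cells in that order of libraries, the shares were 9.004%, 25.4%, 27.75% and 25.1%. Tuft cells have mostly left the cycle, and cells with at least 3 tuft markers at the same depth gave shares of 2.70%, 7.69%, 7.41% and 4.05% as a background. The share in all cells stood above it in every library, although with Isx-9 the background rests on 37 cells and its interval reaches 14.2%. The Mki67-positive cells gave 53.5% of all replication gene UMIs with Isx-9, against 73.1% with DMSO, 73.9% in the untreated reporter and 74.9% in the wild type.

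Within Mki67-positive cells, replication genes were at nearly the level of DMSO. They summed to 2383 CPM with Isx-9, against 2315 with DMSO, 2297 in the untreated reporter and 2432 in the wild type (ratio to DMSO 1.03, 1.02 to 1.04). None of the 39 genes was past 1.5-fold either way, and 19 lay below 1. Of the 12746 genes measured there, 7.08% were lower and 29.8% higher by the fold, and 4634 lay below 1. The replication genes spread around 1. Cdt1 was lowest, with 25.4 CPM with Isx-9, against 37.2 with DMSO, 34.5 in the untreated reporter and 37.5 in the wild type (0.683, 0.630 to 0.740), followed by Pold1 (0.690), Mcm10 (0.738) and Tk1 (0.780). Gins3 was highest, with 8.56 with Isx-9, against 6.17 with DMSO, 6.52 in the untreated reporter and 6.43 in the wild type (1.39, 1.19 to 1.62), followed by Clspn (1.36), Pola1 (1.33), Chaf1b (1.25) and Prim1 (1.25). Of the MCM genes 5 of 6 lay below 1, and their sum gave 0.918 (0.898 to 0.937), while nucleotide supply gave 1.09 (1.07 to 1.11). Ccne1, which drives entry into S phase, had 28.5 CPM in Mki67-positive cells with Isx-9, against 15.2 with DMSO, 15.1 in the untreated reporter and 16.3 in the wild type (1.88, 1.71 to 2.05). Ccna2 stood at 0.749 and E2f1 at 1.21 there. Of the 21 E2F, RB and S-phase cyclin genes measured in these cells, 12 lay below 1, and by the fold 1 was lower and 2 were higher. Their list of 22 had a summed ratio of 0.93 (0.91 to 0.94), so Ccne1 does not stand for the list. Gates set by at least 2 Mki67 UMIs or by a Top2a UMI gave summed ratios of 1.102 and 1.08 for the replication genes.

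Among Mki67-negative cells the difference was as large as in all cells. Replication genes summed to 776 CPM with Isx-9, against 1179 with DMSO, 1201 in the untreated reporter and 1142 in the wild type (ratio to DMSO 0.658, 0.651 to 0.665). There 25 of 39 genes were lower and 0 higher by the fold (9.42% and 42.9% of 14410 measured genes, whatever their level). Tk1 (0.291), Mcm10 (0.314), Cdc45 (0.403), Uhrf1 (0.406) and Mcm5 (0.413) were lowest, and Gins3 (1.33) and Pola1 (1.23) were above 1. The absence of an Mki67 UMI does not show that a cell is out of the cycle, since low counts miss the transcript in many cells. In thinned cells the summed ratio for this gate was 0.551.

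The number of replication genes seen per cell shows how the cells were spread. In thinned cells, at least 5 of the 39 genes had a UMI in 15.6% of cells with Isx-9 (14.9 to 16.4%), against 40.3% with DMSO (39.2 to 41.3%), 41.6% in the untreated reporter and 39.01% in the wild type, and unthinned in 43.5%, 68.6%, 69.2% and 65.6%. In cells with at least 3 tuft markers the thinned shares were 2.70%, 7.21%, 6.02% and 4.96%. No replication gene was seen in 22.7% of thinned cells with Isx-9, against 14.0% with DMSO, 13.3% in the untreated reporter and 16.0% in the wild type. Within the thinned Mki67-positive cells the median was 5 genes in all 4 libraries. Their spread was wider with Isx-9, with no replication gene in 6.43% of them, against 3.05% with DMSO, 2.37% in the untreated reporter and 3.47% in the wild type.

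**Figure D3:**
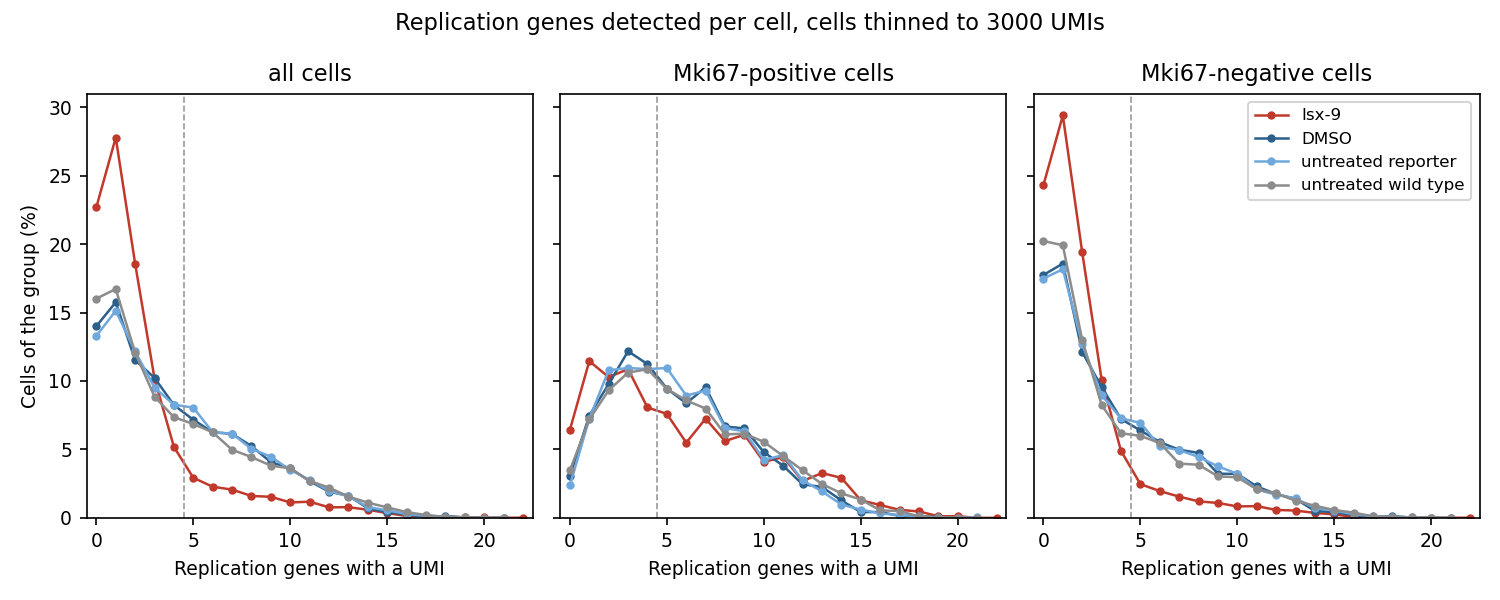
Share of cells (%) by the number of the 39 replication genes with a UMI, in cells thinned to 3000 UMIs, for the 4 single-cell libraries, in all cells, Mki67-positive cells and Mki67-negative cells. The dashed line separates cells with at least 5 genes, which are 15.6% of all cells with Isx-9 and 40.3% with DMSO.

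Marker gates placed these cells among the types of the organoid, as a description of thinned cells and not as clusters. Over all thinned cells the replication genes summed to 959 CPM with Isx-9, against 1678 with DMSO, 1724 in the untreated reporter and 1666 in the wild type. Lgr5-positive cells without an Mki67 UMI had 988 CPM of replication genes with Isx-9 (968 to 1007), against 1902 with DMSO (1867 to 1938), 1844 in the untreated reporter and 1901 in the wild type. Lgr5-positive cells with an Mki67 UMI had 2463 with Isx-9, against 2346 with DMSO, 2350 in the untreated reporter and 2426 in the wild type. Cells in the Lgr5 gate thus differed between treatments where Mki67 was missing and were close where it was present. These gates share cells with others. Unthinned cells without an Mki67 UMI were 82.4% of the Isx-9 library. Lgr5-positive ones were 48.6% and those with at least 3 enteroendocrine markers 64.3%, so many passed both gates. With DMSO the last share was 5.82%. Whether the Lgr5 gate held the same kinds of cells in both libraries was not tested. Unthinned, Lgr5-positive cells without an Mki67 UMI had 895 with Isx-9 and 1575 with DMSO, and those with one 2441 with Isx-9 and 2370 with DMSO. Stem cell markers did not move as one over all unthinned cells. The 10 together summed to 1499 CPM with Isx-9, against 3204 with DMSO, 2805 in the untreated reporter and 2723 in the wild type (ratio to DMSO 0.468), with 1 lower and 3 higher by the fold and 5 below 1. Olfm4 gave most of the sum outside Isx-9, with 158 CPM with Isx-9, against 2158 with DMSO, 1829 in the untreated reporter and 1656 in the wild type. Lgr5 had 218 CPM with Isx-9, against 152 with DMSO, 137 in the untreated reporter and 159 in the wild type.

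Cells with at least 3 enteroendocrine markers made up 55.3% of thinned cells with Isx-9, against 6.02% with DMSO, 5.84% in the untreated reporter and 6.93% in the wild type. Their replication genes summed to 539 CPM with Isx-9 (528 to 551), against 555 with DMSO (518 to 594), 536 in the untreated reporter and 549 in the wild type, with overlapping intervals. In unthinned cells the same gate gave 1075 with Isx-9 (1068 to 1082), against 914 with DMSO (891 to 937), so the intervals of Isx-9 and DMSO were apart only there. Cells with at least 2 UMIs of Neurog3, the factor that commits progenitors to the enteroendocrine fate, gave 471 with Isx-9, against 549 with DMSO, 513 in the untreated reporter and 532.5 in the wild type, and unthinned 709 with Isx-9 and 1021 with DMSO. Both gates lay below the level of all cells in every library. Goblet marker cells had 517 with Isx-9, against 860 with DMSO. Enterocyte marker cells had 851 with Isx-9, from 65 cells, against 624 with DMSO, from 832 cells. Unthinned, the order was the other way, with 1533 with Isx-9 from 1212 cells (1517 to 1550), against 1763 with DMSO from 3689 cells (1752 to 1773), so no direction is read from this gate. Of the 856 thinned Mki67-positive cells with Isx-9, 159 held at least 3 enteroendocrine markers, against 37 of 2128 with DMSO. At full depth these were 1021 of 1762 with Isx-9, against 112 of 4127 with DMSO, so the share depends on depth. In the thinned cells of this kind replication genes summed to 1566 CPM with Isx-9 (1456 to 1682), against 1225 with DMSO (1028 to 1449), 1333 in the untreated reporter and 1667 in the wild type, and unthinned to 2324 with Isx-9 and 1675 with DMSO. In the other thinned Mki67-positive cells they summed to 2593 with Isx-9, against 2273 with DMSO, 2293 in the untreated reporter and 2400 in the wild type, and unthinned to 2487 with Isx-9 and 2335 with DMSO. These gates rest on marker UMIs, which free RNA and doublets (cells read together as 1) can also supply. Doublets were not removed. An automatic call marked 820 Isx-9 cells and 1 DMSO cell, and did not work in the DMSO library. Unthinned Isx-9 cells with at least 3 enteroendocrine markers had a median of 18194 UMIs with an Mki67 UMI and 7941 without. The part of free RNA and of doublets in the values was not tested. Summed over all cells, enteroendocrine markers had a ratio of 13.0 between Isx-9 and DMSO, goblet markers 0.141, Paneth markers 0.0816 and enterocyte markers 0.178. Mesenchymal markers, of which 5 of 7 reached 100 UMIs and 4 were past the fold, summed to 361 CPM with Isx-9, against 35.2 with DMSO, 37.9 in the untreated reporter and 24.5 in the wild type. Vim made up most of it, with 349 with Isx-9 and 34.0 with DMSO, and Col1a2, Col3a1 and Dcn had 0 UMIs with DMSO. The part of these markers in the ratios of the replication genes was not tested.

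**Figure D4:**
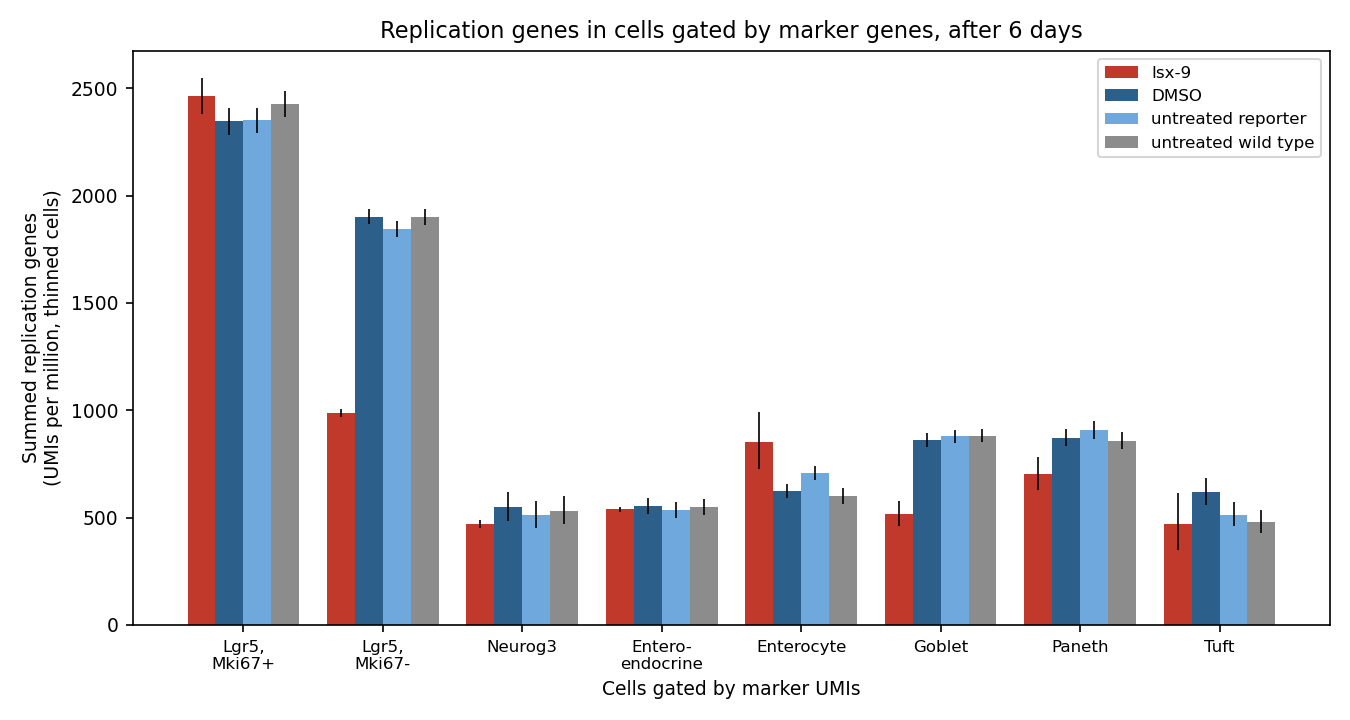
Summed CPM of the 39 replication genes in thinned cells gated by marker UMIs, for the 4 single-cell libraries after 6 days or untreated, with 95% counting intervals. Lgr5-positive cells without an Mki67 UMI stand at 988 with Isx-9 and 1902 with DMSO, while enteroendocrine marker cells stand at 539 and 555. Gates can share cells, so the bars are not separate cell types.

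Genes that act after S phase were lower as well. All 30 G2 and mitosis genes were lower by the fold in all cells, with a summed ratio of 0.491 (0.488 to 0.495). The 55 further replication genes gave 0.728 with 25 lower and 1 higher. For the 22 E2F, RB and S-phase cyclin genes the summed ratio was 0.743, with 6 lower and 1 higher. Over all measured genes 9.45% were lower and 42.0% higher. The G2 and mitosis list holds Mki67, which sets the gate. Mki67-positive cells held 90.7% of the UMIs of this list with Isx-9 and 93.5% with DMSO, so the gate is not independent of these genes. Within Mki67-positive cells the other 29 G2 and mitosis genes gave 1.02 (1.01 to 1.03), with 0 past the fold either way. Of all genes measured there 7.08% were lower and 29.8% higher.

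The early and late readouts were set side by side gene by gene. They share no library, and differ in cells (sorted stem cells and whole organoids), time and assay. Of the 27 genes that fell at 6 hours, 22 were also lower by the fold in all cells after 6 days. That is 81.5% of the bulk calls and 91.7% of the 24 single-cell calls. Most of the list was lower by the fold whatever its bulk call, 24 of 39, as were 2 of the 12 genes not called in bulk. The same overlap over all genes was not counted, so these shares do not measure agreement between the readouts. Across the 39 genes the bulk fold change and the single-cell log2 ratio had a Pearson r of 0.57 (Spearman 0.55) in all cells and of 0.69 (Spearman 0.70) in Mki67-positive cells, given as a description over genes, which are not independent. Cdt1, Mcm10, Mcm5, Tk1 and Fen1 were low in both readouts, and Gins3, Pola1 and Prim1 were highest in bulk and above 1 in Mki67-positive cells. Some partners within 1 enzyme or complex, chosen after their values were seen, held the same order in both: Rrm1 lay below Rrm2, Pola2 below Pola1, and Chaf1a below Chaf1b, at 6 hours and in Mki67-positive cells after 6 days. Others did not. In the clamp loader, Rfc2 lay below Rfc4 at 6 hours (-0.47 and -0.18) and above it in Mki67-positive cells (log2 ratios 0.24 and -0.15).

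**Figure D5:**
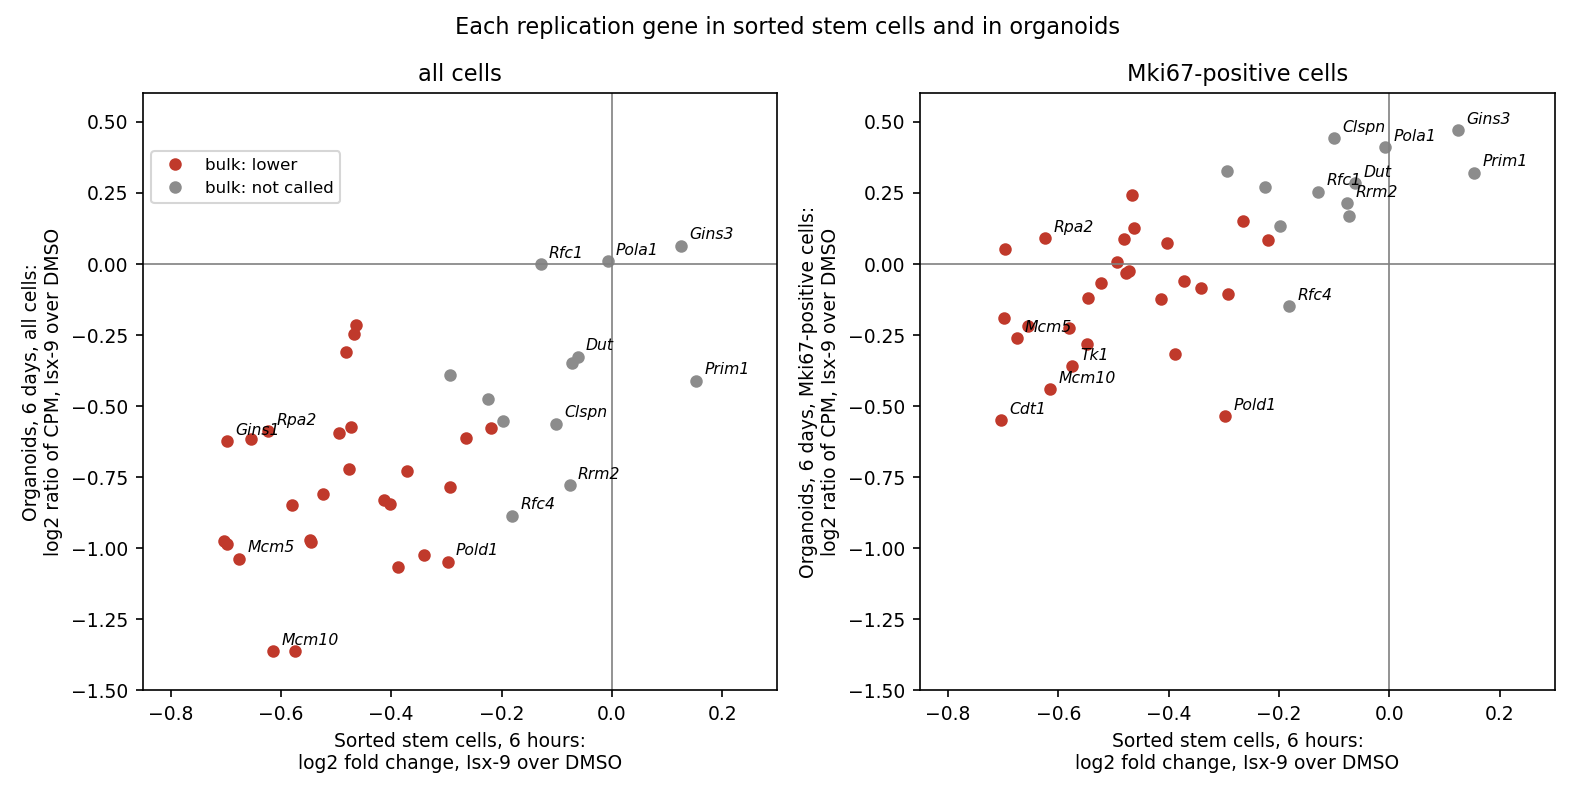
Each point is 1 of the 39 replication genes, with its bulk log2 fold change in sorted stem cells after 6 hours on the x axis and its log2 ratio of CPM after 6 days on the y axis, in all cells on the left and in Mki67-positive cells on the right (red for genes called lower in bulk, grey for the others). The points run from Cdt1 and Mcm10 at the lower left to Gins3 and Prim1 at the right in both panels.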

How the data were processed

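Bulk counts are whole reads per gene, as the authors deposited them, made on GRCm38 with Trim Galore 0.6.4, HTSeq 0.12.4 and HISAT2 per the submitters' processing notes. For HISAT2 no version is given in those notes. The kit (NEBNext Ultra) does not mark strand, so reads of overlapping genes cannot be told apart. The single-cell matrices hold UMI counts, which the authors deposited unscaled. The same notes name Cell Ranger 3.1.0 and Seurat 3.1.5. The authors' deposited table of bulk differential expression (DESeq2 1.24.0) holds a mean signal, log2 fold changes, a score (the Wald statistic) and p-values. It gave the gene names here, and the authors' deposited table called 25 of the 39 genes lower and 0 higher. The 6 ATAC-seq samples were not analysed here.

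Bulk genes were filtered with filterByExpr, TMM-scaled and tested with edgeR 4.0.16 (R 4.3.3, quasi-likelihood, 2-sided, 2 against 2 libraries). Benjamini-Hochberg adjustment ran over all 17418 genes tested, with a threshold of 0.05. CPM values are TMM-scaled and not scaled by length. The fit was tested on simulated data. Single cells needed 500 genes and 1000 UMIs or more, with 20% mitochondrial UMIs or fewer (Python 3.11.15, scanpy 1.11.5, scipy 1.17.1). Scrublet's automatic threshold marked 820 Isx-9 cells, 1 DMSO cell and 0 in both untreated libraries, so it did not work in these 3 libraries, and doublets were not removed. Ratios of summed UMIs carry exact 95% intervals and shares carry Clopper-Pearson intervals, for counting error only. Whether replicate numbers pair the bulk libraries was checked. The differences between replicates correlated at 0.011 across genes, which gave no sign of pairing. With 2 libraries per group this cannot exclude it.

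The gene list, the other lists and the tests were chosen with earlier results of these data known. Genes described in full are all MCM genes and, per other role, the 2 with the largest bulk change and the one with the most extreme single-cell ratio. From other lists they are up to 4 called genes with the largest changes, plus Mki67, Top2a, E2f1, Ccne1, Ccne2, Ccna2 and Lgr5, and those of the marker lists are not all printed. Genes outside this rule were named after their values were seen. Alternatives were other scalings, filters, tools (DESeq2 1.42.0), gates and comparators, and leaving out each bulk library.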

Additional observations from a re-analysis of the deposited data

Results flagged for a closer look

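After 6 days, 4 replication genes stood at least 1.2-fold above DMSO in Mki67-positive cells of the Isx-9 library and at least 1.2-fold below it in Mki67-negative cells, each with an interval that leaves out 1. The ratio of Clspn was 1.36 in Mki67-positive cells and 0.503 in Mki67-negative cells. Chaf1b gave 1.25 and 0.683, Prim1 gave 1.25 and 0.706, and Gins2 gave 1.21 and 0.691, in the same order. The median ratio of all replication genes was 1.004 in Mki67-positive cells and 0.604 in Mki67-negative cells. Intervals lay below 1 for 13 genes and above it for 16 in Mki67-positive cells. In Mki67-negative cells they lay below 1 for 36 genes and above it for 2. The lower values of these 4 genes in Mki67-negative cells were thus shared by most of the list. How many of all measured genes meet the same rule, or have an interval that leaves out 1, was not counted. These counts are therefore descriptions and no result about the replication genes. With 1 library per condition the difference between the gates was not tested. The Mki67-positive cells had medians of 16647.5 UMIs with Isx-9 and 17007 with DMSO, and the Mki67-negative cells 8474 with Isx-9 and 10774.5 with DMSO, so depth differed more in the second gate. Its part in these ratios was not tested.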

How the results depend on the processing

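At 6 hours, the median log2 fold change of the replication genes stayed below 0 under all 8 bulk alternatives, 16 of the 27 calls held in each one, and 10 of 312 gene values changed sign. Leaving out single libraries gave 17 to 27 lower and 0 higher genes, the lowest without Isx-9 replicate 2. DESeq2 gave 25 lower genes, no low-count filter 23, and a replicate block 27. Whether the replicate numbers pair the libraries is not known, and the block changed no call among the 39. With library size alone 1 gene was higher (Prim1), and Pola1 stood at 0.12, Rpa1 at 0.055, Rrm2 at 0.051, Dut at 0.065, Clspn at 0.027, Mki67 at 0.11 and E2f1 at 0.032. With DESeq2, Pola1 stood at 0.0066 and Mki67 at 0.0023. Over the libraries left out, Pola1 ranged from -0.029 to 0.024, Rpa1 from -0.14 to 0.012, Rrm2 from -0.19 to 0.068, Clspn from -0.27 to 0.088, Mki67 from -0.036 to 0.046 and Ccne2 from -0.0059 to 0.78. The cause was not tested.

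After 6 days, a fold of 2 left 6 lower genes in all cells and 13 in Mki67-negative cells. In thinned cells the summed ratio was 0.572 in all cells, 1.07 in Mki67-positive cells and 0.551 in Mki67-negative cells, with 1 gene (Pola1, 1.68) at least 1.5 in Mki67-positive cells. Against the untreated reporter the summed ratio was 0.654 in all cells and 0.646 in Mki67-negative cells, 1 gene (Pold1, 0.666) was lower in Mki67-positive cells, and its share of Mki67-positive cells was 48.3%. In Mki67-positive cells the summed ratio was 1.08 without automatic doublets, 1.07 without the top 8% of doublet scores (an alternative chosen after seeing the data), 1.102 with at least 2 Mki67 UMIs and 1.08 with a Top2a gate. In Mki67-negative cells it was 0.667 over every deposited cell, 0.605 with at least 2 Mki67 UMIs and 0.666 with a Top2a gate. The share of Mki67-positive cells with Isx-9 was 15.9% over every deposited cell, 16.1% without automatic doublets, 16.1% without the top scores, 9.004% thinned and 12.0% with at least 2 UMIs. With DMSO it was 39.03% over every deposited cell, 43.7% without the top scores, 25.4% thinned, 33.1% with at least 2 UMIs and 43.9% with a Top2a gate. The share of cells with at least 5 replication genes was 36.3% over every deposited cell, 40.4% without automatic doublets, 40.4% without the top scores and 15.6% thinned with Isx-9, and 55.0% over every deposited cell, 67.0% without the top scores and 40.3% thinned with DMSO. Depth limits the shares, and those of thinned cells are at equal depth.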
